A study of Homo sapiens with 4 samples.

Results

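The 9 genes described here encode the peroxisome proliferator-activated receptors PPARA, PPARD and PPARG, their dimer partner RXRA, and 5 genes of lipid use that textbooks list as PPAR targets, ANGPTL4, CPT1A, PLIN2, ACADVL and FABP5. They are 9 of the 28729 genes in the table. They were picked by name, because ANGPTL4 was known to rise in this same comparison, so their differences between the groups are given as a description and without p-values. The cells were TU-177, an established line of laryngeal squamous cell carcinoma (LSCC). The question was how their transcriptome differs when SKA3, a subunit of the spindle and kinetochore-associated complex, is silenced. In both groups the cells received a lentivirus with an shRNA and were then selected with puromycin, started 48 h after transduction. The virus carried a negative control shRNA in NC (2 libraries) and an shRNA against SKA3 in SKA3-KD (2 libraries). The labels do not say whether the libraries of a group came from separate cultures, so p-values then measure only the spread between these 4 samples, which may be technical.

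PPARs are nuclear receptors that are switched on by fatty acids and their derivatives. Each binds DNA as a pair with a retinoid X receptor such as RXRA, at a repeated hexamer called the PPAR response element. PPARA is best known for driving fatty acid oxidation in the liver, PPARD for the same in muscle and for differentiation of squamous epithelium, and PPARG for fat cell formation. Among the targets, ANGPTL4 is secreted and inhibits lipoprotein lipase, CPT1A loads long-chain fatty acids onto carnitine for entry into mitochondria, ACADVL carries out the first oxidation step there, PLIN2 coats lipid droplets, and FABP5 carries fatty acids within epithelial cells.

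The values are FPKM, fragments scaled to transcript length and to library size, which allow comparison of levels between genes per unit length. Library sizes worked out from the steps between FPKM values were 9015056 to 11966130 reads, so 1 read on a 1 kb transcript was worth 0.0836 to 0.111 FPKM. The reads recovered on genes came to more than the library size in every library, such as 12330631 against 11966130 in NC 1. The recovered sizes or reads therefore need not be exact, and the cause was not tested. SKA3 itself was listed at 9.40 and 9.64 FPKM in NC and at 3.77 and 4.12 in SKA3-KD, lower in both knockdown libraries. Of the squamous markers, KRT5, KRT6A and KRT14 were each listed at 0.103 FPKM or less in every library, TP63 at 0.348 to 0.580 and CDH1 at 0.149 to 0.447, against the labelled cell type, while EPCAM (2.73 to 2.95) and S100A2 (9.77 to 10.7) were present. KRT17 fell from 45.6 and 49.1 FPKM in NC to 29.4 and 35.7 in SKA3-KD (limma adjusted p = 0.0396). ITGB4 rose from 12.5 and 15.1 to 28.0 and 32.7 (limma adjusted p = 0.0140). The 9 squamous markers in the table summed to 71.4 and 77.9 FPKM in NC and to 71.9 and 82.6 in SKA3-KD, a sum in which these opposite changes offset each other. The 4 adipocyte markers summed to 23.3 to 27.0 FPKM, nearly all of it ADIPOR2, with the defining PLIN1 at 0.129 or less and LEP listed at 0 in all 4 libraries. The hepatocyte (2 genes), leukocyte (4) and endothelial (3) markers each summed to 0.397 FPKM or less. The 5 fibroblast markers summed to 14.6 and 15.0 in NC and to 8.39 and 9.20 in SKA3-KD. The difference came mainly from decorin, DCN, at 8.40, 8.36, 2.48 and 2.35 in NC 1, NC 2, SKA3-KD 1 and SKA3-KD 2 (limma adjusted p = 0.0065). COL1A2 was at 0.00749 or less. COL1A1, at 3.22, 3.99, 2.71 and 2.66 in the same order, was also lower in both knockdown libraries, and PDGFRB, at 2.88, 2.46, 3.19 and 4.13, was higher, neither past the threshold. The part of these marker differences in the results below was not tested.

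PPARA was lower, and ANGPTL4 and CPT1A were higher, in both SKA3-KD libraries than in both NC libraries, and these 3 of 9 members met the threshold of the fit over the whole table. For ANGPTL4 this restates the rise that chose the genes, and the change of PPARA was also known beforehand. The calls and their counts for the members are a description and no test. That threshold was an adjusted p of 0.05 with limma over the 12645 genes whose mean FPKM reached 1, a filter that all 9 members passed. Of all genes tested, 6.16% were called higher and 6.11% lower, and nothing is read from the members' share since ANGPTL4's rise chose them. The groups did not overlap for 7 of the 9 members (4 higher and 3 lower in SKA3-KD), where 61.6% of all genes tested did not overlap. The median log2 fold change of the members, on the log2(FPKM + 1) scale, was -0.10, beside 0.01 over all genes tested, whose SD was 0.33. With 1 library left out, the log2 fold change ran from -0.86 to -0.72 for PPARA, 0.69 to 1.23 for ANGPTL4 and 0.32 to 0.42 for CPT1A. Calls of these fits are not compared, since 1 group then has 1 library. With all 4 libraries, limma without a filter called 0 of the 9, limma without the trend called 1, and limma voom on the recovered reads called 3. In bulk RNA, fewer cells of a type and less RNA per cell cannot be told apart, nor can the knockdown and a difference between the puromycin-selected populations.

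**Figure D1:**
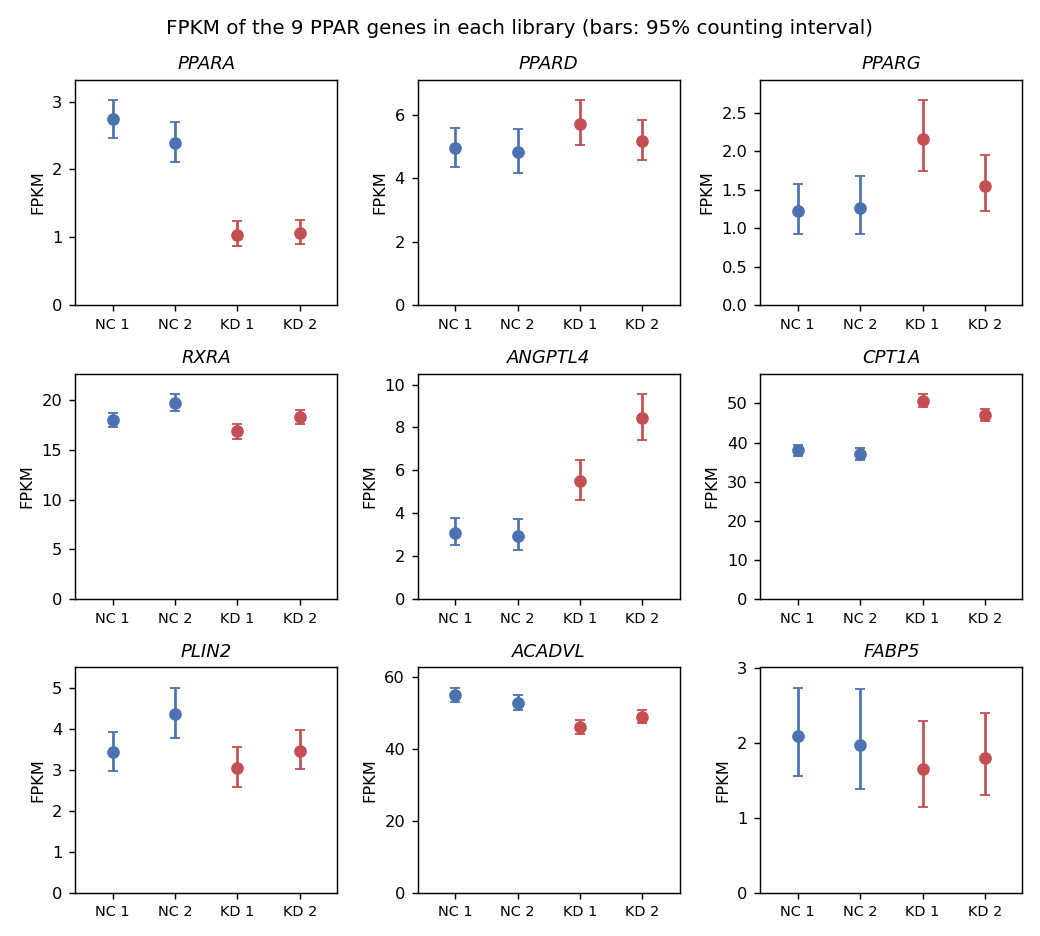
FPKM of each of the 9 genes (vertical axes from 0) in the 4 libraries, NC in blue and SKA3-KD (shortened to KD) in red, with exact Poisson 95% intervals on the recovered reads as bars. PPARA fell from 2.39 to 2.74 in NC to 1.04 to 1.07 in SKA3-KD, ANGPTL4 rose from 2.95 to 3.10 to 5.50 to 8.44, and the RXRA and PLIN2 values of both groups overlap.

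PPARA (ENSG00000186951, chromosome 22, 46150521 to 46243756 in GRCh38, plus strand) was listed at 2.74 FPKM in NC 1 and 2.39 in NC 2. After knockdown it was at 1.04 in the first library and 1.07 in the second. Both knockdown libraries lay far below both controls and were almost equal to each other. The mean was 2.56 ± 0.244 in NC and 1.05 ± 0.0183 in SKA3-KD (SD, n = 2 each), a level 2.43-fold higher in NC. These values rest on 395, 260, 128 and 152 reads, and no interval of an NC library, the lowest starting at 2.11, reached that of a knockdown library, the highest ending at 1.25. The log2 fold change was -0.79 ± 0.13 (SE) on the log2(FPKM + 1) scale, which understates changes of genes near 1 FPKM, and -1.20 with a pseudocount of 0.1.

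PPARD (ENSG00000112033, chromosome 6, 35342558 to 35428191, plus strand) was the most abundant PPAR in every library, at 4.95 and 4.83 FPKM in NC and 5.73 and 5.19 in SKA3-KD. The knockdown libraries were both above the controls, by 1.12-fold on average, and the counting intervals of all 4 libraries overlapped. Its log2 fold change was 0.13 ± 0.08 and was not called.

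PPARG (ENSG00000132170, chromosome 3, 12287368 to 12434356, plus strand) was the lowest of the 3 PPARs in NC, with 1.22 and 1.26 FPKM there and 2.16 and 1.55 in SKA3-KD. SKA3-KD 1 was the highest and SKA3-KD 2 lay nearer to the controls. The counts behind it were small, 59 and 46 reads in the controls, 89 and 74 after knockdown, and the interval of SKA3-KD 2 (1.22 to 1.95 FPKM) overlapped those of both NC libraries, while that of SKA3-KD 1 (1.74 to 2.66) met that of SKA3-KD 2 and lay above those of both controls. The log2 fold change was 0.34 ± 0.16, not called, and 0.19 without SKA3-KD 1.

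RXRA (ENSG00000186350, chromosome 9, 134317098 to 134440585, plus strand) was listed at 18.0 and 19.7 FPKM in NC and 16.9 and 18.3 in SKA3-KD. The groups overlapped, and the log2 fold change was -0.10 ± 0.08. With 2012 to 2531 reads in each library its counting intervals were narrow, and those of NC 1 (17.3 to 18.7) and NC 2 (18.9 to 20.6) were apart, so replicates differed beyond counting error.

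Side by side, the summed FPKM of the 3 PPARs was 8.90 and 8.48 in NC and 8.93 and 7.81 in SKA3-KD, so the groups overlapped in the sum while its make-up differed. PPARA made up 30.7% and 28.2% of that sum in NC and 11.7% and 13.7% in SKA3-KD. The share of PPARG was 13.7% and 14.9% in NC and 24.2% and 19.9% in SKA3-KD, so PPARA was above PPARG in both controls and below it in both knockdown libraries. PPARD made up 55.6% and 56.9% in NC and 64.1% and 66.5% in SKA3-KD. RXRA stood at 2.02 and 2.33 times the PPAR sum in NC and at 1.89 and 2.34 times in SKA3-KD, with no separation of the groups. These shares follow from the same values as above and are not a separate test.

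**Figure D2:**
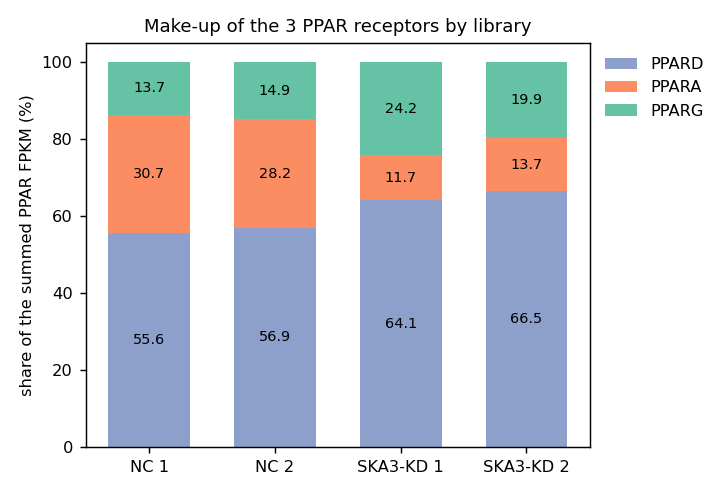
Share of each PPAR (percent of the summed FPKM of PPARA, PPARD and PPARG, vertical axis) in the 4 libraries, as stacked bars. The PPARA part shrinks from 30.7% and 28.2% in NC to 11.7% and 13.7% in SKA3-KD, while PPARD remains the largest part in each library.

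ANGPTL4 (ENSG00000167772, chromosome 19, 8363289 to 8374373, plus strand) was listed at 3.10 FPKM in NC 1 and 2.95 in NC 2, against 5.50 in the first and 8.44 in the second SKA3-KD library. Both knockdown libraries were above both controls, and SKA3-KD 2 stood apart from SKA3-KD 1. The mean level was 2.31-fold higher in SKA3-KD, the 4 ratios of a knockdown to a control library ran from 1.78 to 2.86, and the knockdown replicates differed from each other by 1.53-fold. The counts were 92, 66, 139 and 247 reads, and the intervals of SKA3-KD 1 (4.63 to 6.50 FPKM) and SKA3-KD 2 (7.42 to 9.56) did not meet. Its log2 fold change was 0.96 ± 0.18, the largest positive value of the 9 members. One exonic base is shared with RAB11B-AS1 on the other strand.

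CPT1A (ENSG00000110090, chromosome 11, 68754620 to 68844410, minus strand) was listed at 38.0 and 37.1 FPKM in NC and 50.7 and 47.0 in SKA3-KD, on 2197 to 3640 reads. The controls were close together and both knockdown libraries were higher, by 1.3-fold on average (log2 fold change 0.37 ± 0.06). The counting intervals of SKA3-KD 1 (49.0 to 52.4 FPKM) and SKA3-KD 2 (45.5 to 48.6) were apart. The difference is small in fold and large in absolute level, since CPT1A was among the most abundant members, above 89.9% of the genes tested by its NC level.

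ACADVL (ENSG00000072778, chromosome 17, 7217125 to 7225273, plus strand), which acts after CPT1A in the same pathway, lay on the other side, at 55.0 and 52.9 FPKM in NC and 46.1 and 48.9 in SKA3-KD. Its groups did not overlap, but the log2 fold change of -0.18 ± 0.06 was not called. Of its exonic bases, 1.7% are shared with DLG4 on the other strand, and whether strand was used in counting is not given in the sources used here.

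PLIN2 (ENSG00000147872, chromosome 9, 19108375 to 19149290, minus strand) was listed at 3.43 and 4.36 FPKM in NC and 3.05 and 3.46 in SKA3-KD. The groups overlapped, with NC 2 the highest library, and the log2 fold change was -0.20 ± 0.13.

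FABP5 (ENSG00000164687) was listed at 2.09 and 1.98 FPKM in NC and 1.66 and 1.80 in SKA3-KD, on only 35 to 52 reads. The knockdown values were lower in both libraries, yet all 4 counting intervals overlapped and the log2 fold change was -0.15 ± 0.12. The annotation names 13 FABP5 pseudogenes, and 4.5% of its exonic bases are shared with AC009902.2 on the other strand, so its level is uncertain where the counting could split reads among copies.

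**Figure D3:**
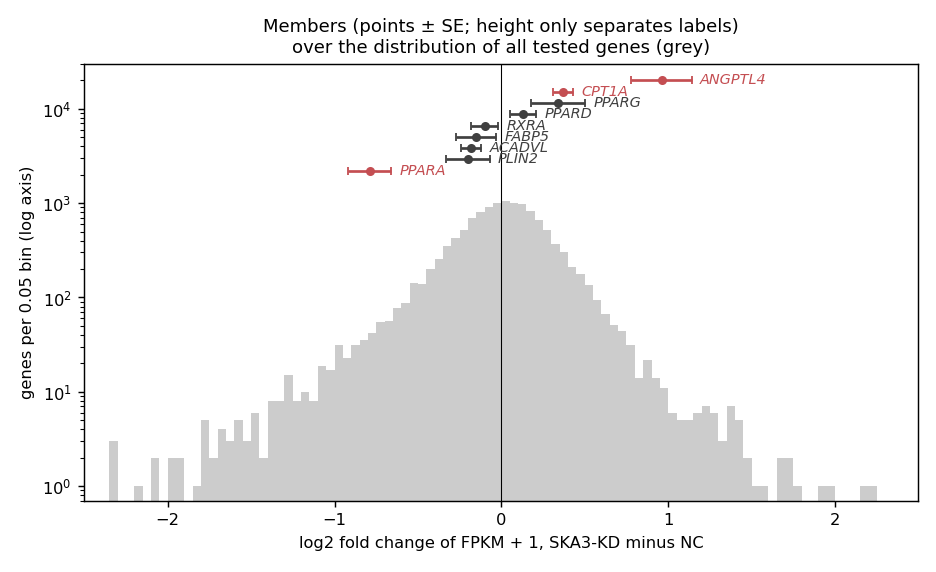
Log2 fold change of FPKM + 1 (SKA3-KD minus NC, horizontal axis) of the 9 members as points with SE bars, red where called, above a histogram of all 12645 genes tested (log vertical axis). PPARA at -0.79 and ANGPTL4 at 0.96 lie in the tails, CPT1A at 0.37 lies nearer the centre, and the other 6 members lie between -0.20 and 0.34.

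The order of the levels on the FPKM scale was ACADVL, CPT1A, RXRA, PPARD, PLIN2, ANGPTL4, PPARA, FABP5 and PPARG in NC, where no neighbours in the order overlapped between their libraries. In SKA3-KD the order was CPT1A, ACADVL, RXRA, ANGPTL4, PPARD, PLIN2, PPARG, FABP5 and PPARA. There the libraries of CPT1A and ACADVL, of ANGPTL4 and PPARD, and of PPARG and FABP5 overlapped, so neither gene of these pairs was above the other beyond its spread. By the listed values, PPARA moved from the seventh place to the last. Its counting interval in SKA3-KD 1 (0.869 to 1.24) still met that of FABP5 (1.15 to 2.30).

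The sequences before the starts of PPARA, PPARG and ANGPTL4 are shown because these were the receptor that fell, the receptor whose half-sites stand before its first start, and the target with the largest rise. The window of CPT1A, which also rose, is not printed because 133 of its 250 bases are exonic, and it held none of the motifs below. Each is the 250 bases upstream of a RefSeq start (GRCh38.p14), on the gene's plus strand. Capitals mark the nuclear receptor half-site AGGTCA, the GC box GGGCGG and the TATA box TATAAA, searched on both strands. The first of 2 PPARA windows, at chr22:46150276-46150525, lies before the gene except for 5 exonic bases. The first of 6 PPARG windows, at chr3:12287118-12287367, lies wholly before the gene. The ANGPTL4 window, at chr19:8363905-8364154, lies inside the gene as GENCODE 29 draws it, with 4 exonic bases and the remainder intronic to a longer transcript.
PPARA: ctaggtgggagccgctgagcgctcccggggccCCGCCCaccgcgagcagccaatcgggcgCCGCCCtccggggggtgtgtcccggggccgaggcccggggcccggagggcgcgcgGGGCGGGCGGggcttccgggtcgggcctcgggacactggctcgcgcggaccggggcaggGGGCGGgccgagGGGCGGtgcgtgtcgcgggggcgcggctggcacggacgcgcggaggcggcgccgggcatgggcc
PPARG: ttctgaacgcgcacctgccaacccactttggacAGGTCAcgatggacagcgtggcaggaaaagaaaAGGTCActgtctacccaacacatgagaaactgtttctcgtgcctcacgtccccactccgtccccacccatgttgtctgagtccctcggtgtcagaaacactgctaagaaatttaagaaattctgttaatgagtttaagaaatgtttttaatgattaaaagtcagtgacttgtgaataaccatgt
ANGPTL4: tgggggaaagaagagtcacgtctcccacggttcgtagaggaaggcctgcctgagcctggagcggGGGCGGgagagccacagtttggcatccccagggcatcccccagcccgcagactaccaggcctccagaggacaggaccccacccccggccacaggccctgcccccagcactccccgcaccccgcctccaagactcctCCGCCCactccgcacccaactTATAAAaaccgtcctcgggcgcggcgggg

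The printed PPARA window was made up of G and C for 84.4% and held 6 GC boxes, and the second PPARA window 87.2% and 9, with no half-site and no TATA box in either. In the PPARG window, G and C made up 44.8%, and 2 half-sites stood 217 and 184 bases before the start with no GC box, and a copy of the core ACGTG of the hypoxia response element lay 140 bases before it, in lower case. The ANGPTL4 window held 2 GC boxes, a TATA box beginning 29 bases before the start, and, in lower case, a copy of the core ACGTG 234 bases before the start. Windows of PLIN2 (3 matches, those at 69 and 68 bases overlapping on opposite strands) and ACADVL (1 match) also held that core. Over all 35116 RefSeq windows of this length, 12.1% held the half-site, 42.6% the GC box, 10.7% the TATA box and 18.5% the core ACGTG. The full PPAR response element in its strict form AGGTCANAGGTCA was in 6 windows, or 0.0171%, and in none of the windows of the 8 members with an entry, which says only that these letters are not in these bases. These matches are descriptions and not binding sites.

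Beyond the members, the wider PPAR pathway was read from 11 lists with 116 genes in the table, of which 82 were tested and 34 were under the filter, and 17 further genes are not analysed here. Past the threshold, 10 of the 82 fell and 2 rose (limma, adjusted p over all genes tested), which is 12.2% lower and 2.44% higher beside 6.11% and 6.16% of all genes tested. Their median log2 fold change was -0.03. The lists were written with the changes of PDK4, OLR1, HILPDA, PPARA and PPARGC1A already known, so these counts are not independent evidence of a direction. The adjusted p-values printed below for PDK4, OLR1, HILPDA and PPARGC1A are therefore a description and no test. Calls with 1 library left out are not compared, since 1 group then has 1 library. Without a filter, limma called 4 of 115, of which 3 were lower and 1 higher. Limma voom on the recovered reads of all 4 libraries called 25, of which 18 were lower and 7 higher. With a mean FPKM of at least 5, 56 were tested and 9 were lower and 5 higher, a less uneven split. Over the whole table, that filter called 887 genes lower and 993 higher of 7303 tested. Limma voom called 1548 lower and 1751 higher of 12470, so its counts are to be read beside these larger shares.

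**Figure D4:**
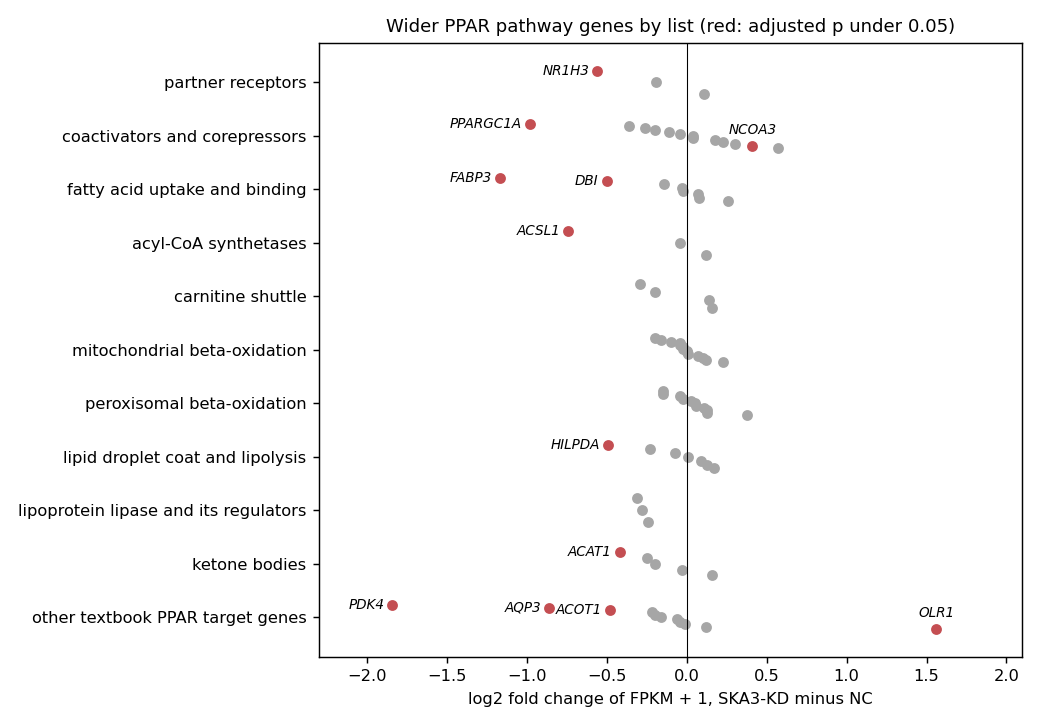
Log2 fold change of FPKM + 1 (SKA3-KD minus NC, horizontal axis) of the 82 tested genes of the wider pathway, by list, with 1 point for each gene, red and named where past the threshold. PDK4 at -1.84 and OLR1 at 1.56 are the extremes, and the mitochondrial beta-oxidation genes lie between -0.20 and 0.23.

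Among the partners of the PPARs, 1 of 3 tested receptors was called, lower, and 2 of 13 coactivators and corepressors were called, 1 in each direction, beside 6.11% lower and 6.16% higher over all genes tested. PPARGC1A, the coactivator PGC-1α that works with PPARA on mitochondrial genes, was listed at 2.84 and 2.64 FPKM in NC and 0.981 and 0.815 in SKA3-KD, and fell (log2 fold change -0.98 ± 0.13, limma adjusted p = 0.0189). Like PPARA it was low in both knockdown libraries, at 0.328 of the control level. NR1H3, the oxysterol receptor LXRα that also pairs with RXRA, fell from 12.4 and 13.5 FPKM to 8.75 and 8.10 (-0.56 ± 0.08, limma adjusted p = 0.0205). NCOA3, a coactivator of many nuclear receptors, rose from 7.01 and 7.05 FPKM to 10.2 and 9.14 (0.41 ± 0.08, limma adjusted p = 0.0367).

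Of 8 tested genes of fatty acid uptake and binding 2 were called lower, and of 3 tested acyl-CoA synthetases 1 was, beside 6.11% of all genes tested. FABP3, the fatty acid carrier best known from heart muscle, fell from 52.6 and 48.1 FPKM to 23.0 and 20.8, a mean 2.30-fold higher in NC (-1.17 ± 0.08, limma adjusted p = 0.00806). DBI, the acyl-CoA-binding protein, fell from 85.6 and 77.2 FPKM to 60.4 and 54.1 (-0.50 ± 0.09, limma adjusted p = 0.0293). ACSL1, which couples long-chain fatty acids to coenzyme A, fell from 4.24 and 4.01 FPKM to 2.24 and 1.91 (-0.74 ± 0.10, limma adjusted p = 0.0207). FABP3, at 21.9 ± 1.53 FPKM in SKA3-KD, was well above the member FABP5, which was at 2.09 or less.

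Beside the member CPT1A, the genes of oxidation gave no calls at this threshold, where 6.11% of all genes tested were lower and 6.16% higher. Nothing is read from the lack of calls in lists of this size. None of the 4 tested genes of the carnitine shuttle, none of 14 of mitochondrial beta-oxidation and none of 11 of peroxisomal beta-oxidation passed (limma), with 2, 2 and 1 at an unadjusted p under 0.05 and 1, 1 and 1 called by limma voom. HADHA, the large subunit of the trifunctional protein, was listed at 89.2 and 86.9 FPKM in NC and 81.4 and 76.2 in SKA3-KD (limma adjusted p = 0.149). ECHS1, the short-chain enoyl-CoA hydratase, was listed at 73.5 and 78.5 FPKM in NC and 91.0 and 87.7 in SKA3-KD, higher in both but not called (limma adjusted p = 0.0723). It was called with a mean FPKM of at least 5 (limma adjusted p = 0.0409) and by limma voom (0.0232). Over the alternatives with all 4 libraries its adjusted p ran from 0.0232 to 0.144. In the carnitine shuttle, CRAT had log2 fold change 0.14 and SLC25A20, the carrier after CPT1A, had -0.20. Among the peroxisomal genes, HSD17B4, the D-bifunctional protein, had a log2 fold change of -0.15.

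Of the lipoprotein lipase genes, which meet the member ANGPTL4 outside the cell, none of 3 tested was called by limma, 1 had an unadjusted p under 0.05 and limma voom called 2. LPL, the lipase that ANGPTL4 inhibits, was listed at 39.3 and 39.6 FPKM in NC and 35.4 and 31.3 in SKA3-KD (-0.24 ± 0.08, limma adjusted p = 0.107), and the lipoprotein receptor VLDLR had -0.28. LPL was thus above ANGPTL4 in every library, at 31.3 FPKM or more against 8.44 or less. Of 7 tested lipid droplet genes only HILPDA, an inhibitor of droplet lipolysis, was called and fell from 11.2 and 10.4 FPKM to 7.26 and 7.58 (-0.49 ± 0.07, limma adjusted p = 0.0226). Of 5 ketone body genes only ACAT1, the mitochondrial acetoacetyl-CoA thiolase, was called and fell from 51.2 and 47.1 FPKM to 37.7 and 35.4 (-0.42 ± 0.07, limma adjusted p = 0.0293). By limma, 6.11% of all genes tested were called lower and 6.16% higher, and nothing is read from the counts of these short lists.

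Among 11 other textbook PPAR targets, 3 fell and 1 rose, beside 6.11% lower and 6.16% higher over all genes tested. PDK4 and OLR1 were known to change when the list was written, so this count is a description and no test. PDK4, the kinase that closes pyruvate dehydrogenase when fatty acids are burnt, fell from 46.4 and 39.0 FPKM to 12.0 and 10.5, a mean 3.81-fold higher in NC (-1.84 ± 0.11, limma adjusted p = 0.00709). AQP3, a channel for water and glycerol, fell from 65.2 and 61.4 FPKM to 35.8 and 33.0 (-0.86 ± 0.07, limma adjusted p = 0.00891). ACOT1, an acyl-CoA thioesterase whose near-identical neighbour ACOT2 makes its reads uncertain, fell from 8.39 and 9.71 FPKM to 5.74 and 6.68 and was just past the threshold (-0.48 ± 0.11, limma adjusted p = 0.0499). OLR1, the receptor for oxidized LDL, rose from 10.8 and 11.6 FPKM to 38.8 and 31.4 (1.56 ± 0.11, limma adjusted p = 0.00826). ANGPTL4 and OLR1 were thus higher and PDK4 and AQP3 lower. Textbooks list all of them as PPAR targets, and the cause of each change was not tested. Of the 12 called genes of the wider lists, FABP3, PDK4, AQP3 and OLR1 were also called by limma without a filter, and the other 8 were not.

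By the distance between log2(FPKM + 1) profiles, each centred on its mean over the 4 libraries, the genes nearest to ANGPTL4 were AC022733.2 (distance 0.148), UBASH3B (0.247) and AC046143.2 (0.288). AC022733.2 was listed at 1.89, 2.09, 4.26 and 6.07 FPKM in NC 1, NC 2, SKA3-KD 1 and SKA3-KD 2, and UBASH3B, a phosphatase of receptor signalling, at 4.09, 4.37, 7.96 and 9.50. AC046143.2, at 0.522, 0.693, 1.23 and 2.12, passed the filter only through its SKA3-KD values. All 3 share with ANGPTL4 the higher value in SKA3-KD 2 than in SKA3-KD 1, which follows from how they were chosen. Nearest to PPARA were SLC2A13 (0.0422), a myo-inositol transporter listed at 6.13, 5.30, 2.84 and 2.99, then SPINK6 (0.0532), a protease inhibitor, at 84.0, 73.1, 45.8 and 45.3, and TMEM30A (0.0544), a flippase subunit, at 20.1, 17.5, 10.4 and 10.1 FPKM. As with PPARA, NC 1 was above NC 2 and the knockdown libraries were nearly equal in these 3 genes, which also follows from the choice. Likeness over 4 libraries is a description, since a profile that separates the groups has few other ways to vary.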

How the data were processed

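Total RNA of 4 TU-177 libraries, 2 NC and 2 SKA3-KD, was extracted with Trizol. The authors deposited FPKM per gene, and the submitters' processing notes name hg19, HISAT2, StringTie 1.3.1, Cuffdiff 2.1.1 and Bowtie2 2.2.8 without their roles. Of 28729 genes, 27199 were named by Ensembl identifier from GENCODE 29 (GRCh38), so positions and lengths come from another build than the authors'. Groups and replicate numbers were taken from the sample titles.

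The authors' FPKM values were tested, without further scaling, as log2(FPKM + 1) with limma 3.58.1 in R 4.3.3 (lmFit, eBayes with a mean-variance trend, two-sided) over the 12645 genes whose mean FPKM reached 1, with Benjamini-Hochberg adjustment and a threshold of 0.05. An exact permutation test of 2 against 2 libraries cannot go below p = 0.333, so none was used. The spacing of low FPKM values gave each library's size and whole reads for each gene. Reads came out whole within 0.02 for 98.6% of the genes tested, and for 61.4% this was with the GENCODE 29 exon length. The other lengths were searched until the reads were whole, so wholeness is no check there. Exact Poisson 95% intervals cover counting error only. For 4 of the 9 members the GENCODE 29 exon length gave the reads, and for the others the smallest length that made all 4 values whole was used.

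The 9 members, the pathway and marker lists and the naming rule were chosen with earlier results of these data known, including some from the study's supplementary table. Genes named were the members, SKA3, list genes past the threshold, otherwise up to 2 for each list with the highest mean FPKM, and the 3 genes nearest to ANGPTL4 and to PPARA. Marker genes were named from their list. A result that this rule would name is not reported here. Promoter windows came from RefSeq (GRCh38.p14), with entries for 8 of the 9 members. On simulated data with 189 genes changed by 1 log2 unit among 12289, limma recovered 157 with 15 false calls, and limma voom 171 with 8. The simulation gave every gene the same fixed dispersion and changed far fewer genes than were called here. Its rates therefore need not hold for these data. Alternatives were another pseudocount, other filters, 2 other scalings, eBayes without a trend or robust, the replicate number as a block, limma voom on the recovered reads, and each library left out. Python 3.11.15 with pandas 2.3.3, numpy 2.4.6, scipy 1.17.1 and matplotlib 3.10.9 did the remaining steps.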

Additional observations from a re-analysis of the deposited data

How the results depend on the processing

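With 2 libraries in each group, calls depended strongly on each library. Leaving out 1 library gave 0 to 181 called genes over the whole table, in place of 1551, 0 to 1 of the 9 members, in place of 3, and 0 to 4 of the wider pathway genes, in place of 12. The lone library of a group is then assumed to vary like the pair. The table gave 0 without NC 1 and 0 without NC 2 (limma, with 3124 and 3352 at an unadjusted p under 0.05), 66 without SKA3-KD 1 and 181 without SKA3-KD 2. Of the members, ANGPTL4 was called without SKA3-KD 1, and none was called without NC 1, NC 2 or SKA3-KD 2 (3, 4 and 4 at an unadjusted p under 0.05). Without a filter on low values (26504 genes tested) 129 genes, 0 members (4 at an unadjusted p under 0.05) and 4 wider genes were called. A mean FPKM of at least 5 tested only 4 members and called 1, CPT1A. Without the trend 693 genes and 1 member, PPARA, were called. Limma voom on the recovered reads called 3299 genes and 25 wider genes, and the same number of members, 3. The causes were not tested.

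The log2 fold changes kept their direction in all settings run for the 36 genes followed singly. PPARA ran from -1.28 to -0.76 with all 4 libraries and from -0.86 to -0.72 with 1 left out, ANGPTL4 from 0.95 to 1.18 and from 0.69 to 1.23, and CPT1A from 0.34 to 0.38 and from 0.32 to 0.42. The median over all genes stayed between -0.001 and 0.021 under every setting. No link between same-numbered libraries is given beyond the number. The deviations of NC 1 and SKA3-KD 1 from their group means correlated at 0.10 over 12645 genes. The second pair mirrors the first and adds no further value. Whether same-numbered libraries shared a batch was not tested. With the replicate block 1967 genes, 3 members and 15 wider genes were called. At 35 to 52 reads, the counting intervals of the 4 FABP5 libraries overlapped.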
